A study of Homo sapiens with 16 samples.

Results

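The genes described here are 10 regulators and markers of epithelial-mesenchymal transition (EMT), picked by name out of 59609 genes listed in both RNA tables: the transcription factors SNAI1, SNAI2, ZEB1, ZEB2, TWIST1, TWIST2 and OVOL1, the cadherins CDH1 and CDH2, and the intermediate filament gene VIM. The labels name 1 cell line throughout, Huh7, which derives from a human hepatocellular carcinoma. For the drug experiment, RNA was sequenced from 3 samples treated with sorafenib, a multikinase inhibitor given in liver cancer, and from 3 treated with its vehicle, dimethyl sulfoxide (DMSO). For the overexpression experiment it was sequenced from 3 samples overexpressing the metallothionein MT1G and 3 with an empty vector, and no drug was named for these 6 samples. Open chromatin was mapped by ATAC-seq in 2 further sorafenib samples and 2 further DMSO samples. The labels gave no dose, no treatment time, no promoter for the MT1G construct, and no statement on whether the overexpressing cells were a clone or a pool. They also did not say that replicates were separate cultures, so the p-values measure only the spread between these samples.

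EMT is the programme by which epithelial cells loosen their junctions and take on migratory, mesenchymal traits. The SNAI and ZEB zinc finger proteins and the TWIST basic helix-loop-helix proteins bind E-boxes, short CANNTG elements, and the SNAI and ZEB proteins are known repressors of CDH1, which encodes the epithelial adhesion molecule E-cadherin. CDH2 encodes N-cadherin and VIM encodes vimentin, both used as mesenchymal markers, and OVOL1 is an epithelial zinc finger repressor that opposes the ZEB genes. In liver, hepatocytes express E-cadherin and also N-cadherin, so CDH2 alone does not mark a mesenchymal cell there.

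The RNA libraries held 16549330 to 26781600 reads counted in genes. MT1G had 0 reads in the 3 DMSO and the 3 vector libraries. Its normalized read count was 130 to 179 in the MT1G libraries and 158 to 194 in the sorafenib libraries, so reads of the gene carried by the construct also appeared with the drug. The hepatocyte markers went against the cell line label. All 10 (ALB, AFP, APOA1, APOB, APOH, TTR, SERPINA1, FGB, TF and AHSG) stayed below a normalized read count of 10 in all 12 libraries, and ALB, APOB and APOH had 0 reads in each of them. The hepatocyte nuclear factor HNF4A (340 ± 9.03 with DMSO, SD, n = 3) and the epithelial keratin KRT8 (31717 ± 3766 with DMSO, SD, n = 3) were expressed. The cells are therefore called here only the cells labelled Huh7. The spans of ZEB1, ZEB2, CDH2 and VIM overlap those of their antisense genes (ZEB1-AS1, ZEB2-AS1, CDH2-AS1 and VIM-AS1), and reads of both cannot be told apart where counting does not use strand. In bulk RNA, fewer cells of a type and less RNA per cell cannot be told apart.

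RefSeq promoter windows (GRCh38.p14) were at hand for 5 of the 10 genes, ZEB1, ZEB2, TWIST2, CDH2 and VIM, 12 windows in all. SNAI1, SNAI2, TWIST1, CDH1 and OVOL1 had no entry. The 250 bases before the first start of 4 of these genes are printed 5′ to 3′ on the gene's own strand, because these 4 responded differently and the E-box is the element that SNAI, ZEB and TWIST proteins bind. Capitals mark each CANNTG match. ZEB1 lies at chr10:31318167-31318416 on the plus strand, ZEB2 at chr2:144520120-144520369 on the minus strand, TWIST2 at chr2:238847835-238848084 on the plus strand and VIM at chr10:17227991-17228240 on the plus strand.
ZEB1: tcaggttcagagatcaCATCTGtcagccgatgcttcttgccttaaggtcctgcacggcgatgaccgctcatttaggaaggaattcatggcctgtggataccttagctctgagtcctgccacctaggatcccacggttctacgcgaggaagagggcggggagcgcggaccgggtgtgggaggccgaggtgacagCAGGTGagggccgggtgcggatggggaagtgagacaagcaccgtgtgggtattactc
ZEB2: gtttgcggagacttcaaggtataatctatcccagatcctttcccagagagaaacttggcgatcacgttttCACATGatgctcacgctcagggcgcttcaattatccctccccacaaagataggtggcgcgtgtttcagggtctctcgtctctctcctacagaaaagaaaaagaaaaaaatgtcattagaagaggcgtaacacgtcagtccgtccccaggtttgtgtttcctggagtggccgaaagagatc
TWIST2: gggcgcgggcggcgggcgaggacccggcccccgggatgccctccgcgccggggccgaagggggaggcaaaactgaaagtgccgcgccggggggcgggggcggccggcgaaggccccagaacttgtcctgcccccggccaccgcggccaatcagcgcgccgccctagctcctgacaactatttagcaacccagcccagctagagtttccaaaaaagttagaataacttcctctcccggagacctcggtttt
VIM: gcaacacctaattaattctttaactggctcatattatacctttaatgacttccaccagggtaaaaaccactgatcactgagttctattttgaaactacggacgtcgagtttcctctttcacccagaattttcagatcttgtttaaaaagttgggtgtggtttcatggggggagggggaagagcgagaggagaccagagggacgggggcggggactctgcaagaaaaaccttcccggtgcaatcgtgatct

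The ZEB1 window held a CATCTG whose first base lay 234 bases before the start and a CAGGTG 57 bases before it, the latter being the reverse complement of CACCTG, the form that SNAI and ZEB proteins are known to bind. The ZEB2 window held a single CACATG, 180 bases before the start, and the TWIST2 and VIM windows held none. Searched on both strands, CACCTG occurs in 17.5% of the 35116 RefSeq windows of this length and CANNTG, which includes it, in 61.8%. TGANTCA, the AP-1 element, occurs in 6.57% of them and was in none of the 4 windows printed. Over all 12 windows, CACCTG was in 2, both of ZEB1, CANNTG in 6, of ZEB1, ZEB2 and CDH2, and TGANTCA in 1, the second window of CDH2, where a TGAATCA began 102 bases before the start. A match describes these letters only and shows no binding. An ATAC-seq peak overlapped the ZEB1 and VIM windows in all 4 ATAC libraries, and the TWIST2 window in 3 of 4. No library had a peak over the ZEB2 window, and the nearest region within that gene, at chr2:144516527-144517816, was open in all 4.

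With sorafenib, SNAI1, SNAI2 and ZEB2 rose, by 5.88, 8.42 and 2.65 times on the log2(normalized read count + 1) scale used for all changes here, whereas ZEB1 and TWIST1 did not pass the test. TWIST2 fell to 48.4% of its DMSO level, CDH2 to 86.8% and VIM to 87.5%. CDH1 had only 6 to 26 reads in any library and did not pass the test, and OVOL1 had almost none. Of the 9 genes tested, 3 passed an adjusted p of 0.05 as higher and 3 as lower (limma, Benjamini-Hochberg over all 14915 genes tested), against 34.4% of all genes higher, 35.8% lower and 70.3% in either direction. The share of these genes that was called was thus near that of all genes. Their median log2 change was 0.09, against -0.02 for all genes tested. The 3 treated libraries lay wholly above the 3 control libraries for 4 of the 9 genes (the 3 called ones and TWIST1) and wholly below for 3, against 35.8% and 37.2% of all genes (73.0% in either direction).

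MT1G overexpression moved fewer of them. SNAI2 rose 2.24 times, ZEB2 1.53 times and ZEB1 1.29 times, and 0 of the 9 fell, also at an unadjusted p under 0.05 and with edgeR or DESeq2. These 3 of 9 compare with 11.5% of the 13914 genes tested that were higher, 11.3% lower and 22.8% in either direction (limma, Benjamini-Hochberg). These calls over all genes moved from 1604 higher and 1575 lower to 1054 and 825 without vector replicate 2, and to 1003 and 766 without vector replicate 3. The 9 genes had a median log2 change of 0.22, against -6.6e-05 for all genes. The groups did not overlap for 3 genes, all higher with MT1G (SNAI1, SNAI2 and ZEB2), against 18.9% of all genes higher, 20.5% lower and 39.4% in either direction. SNAI2 and ZEB2 were called higher in both experiments, as were 552 of 13748 genes tested in both (4.02%).

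**Figure D1:**
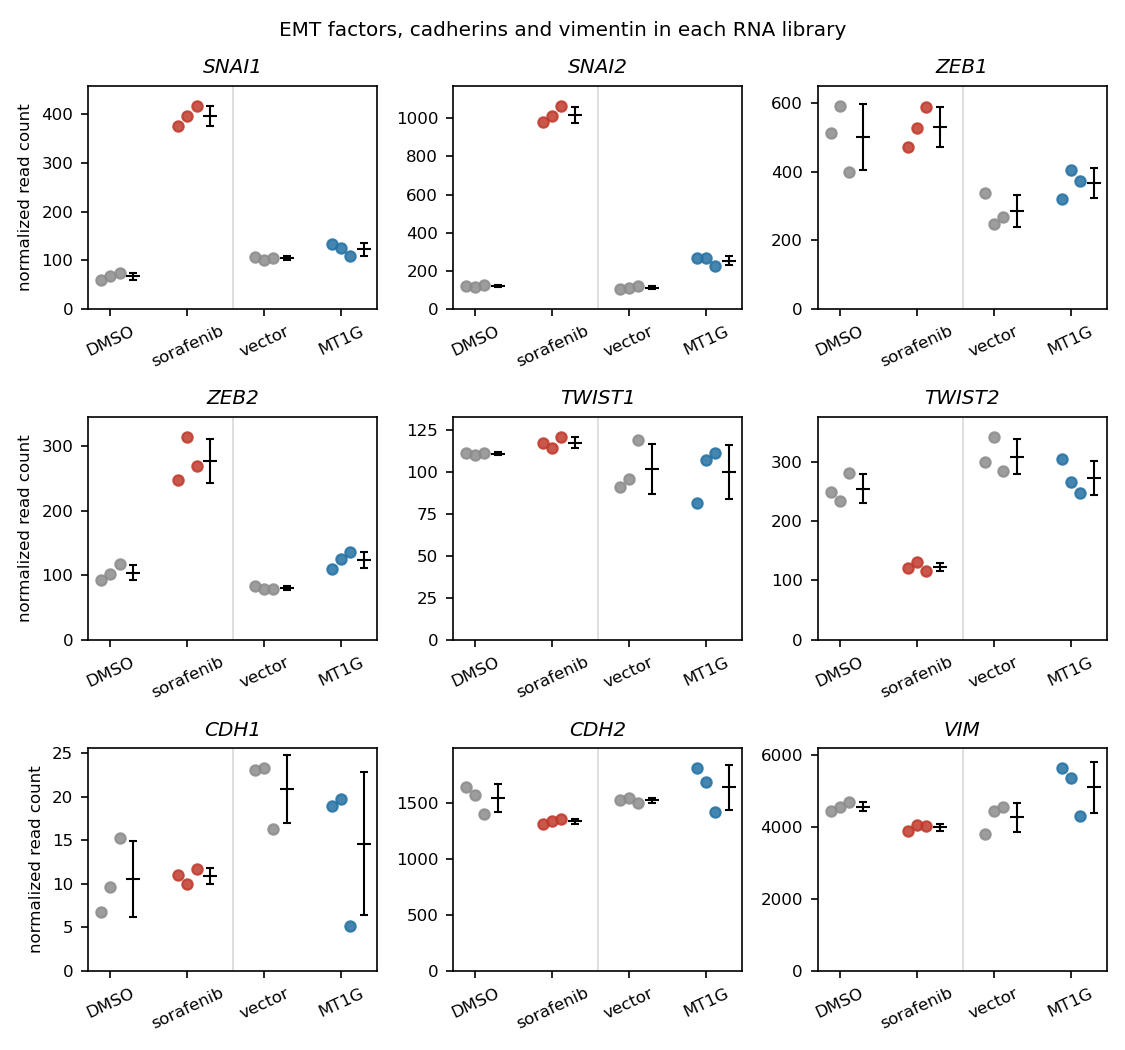
Normalized read count (linear axis from 0) of 9 genes in each RNA library; points are libraries, and the bar beside them is the mean ± SD of 3. The left and right sides of each panel come from 2 tables normalized separately. SNAI1, SNAI2 and ZEB2 stand highest with sorafenib, TWIST2 stands lowest there, and CDH1 stays below 25 in every library.

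SNAI1 (chr20:49982980-49988886) encodes Snail, an early and short-lived EMT repressor. Its normalized read counts were 376, 396 and 416 with sorafenib and 59.6, 67.5 and 73.1 with DMSO. All 3 treated libraries lay far above all 3 controls. The log2 change was 2.55 (SE 0.12, adjusted p = 1.98e-11). In the other experiment the counts were 133, 126 and 108 with MT1G and 107, 100 and 105 with the vector. The groups touched without overlapping, and the log2 change of 0.22 (95% interval -0.10 to 0.55) did not pass the test (adjusted p = 0.313).

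SNAI2 (chr8:48917598-48921429) encodes Slug, the second Snail family repressor, and gave the largest change among the 9 tested genes in both experiments. Its counts were 980, 1013 and 1064 with sorafenib and 120, 117 and 123 with DMSO, a log2 change of 3.07 (SE 0.09, adjusted p = 4.26e-14). With MT1G they were 268, 266 and 224, and with the vector 106, 108 and 121, a log2 change of 1.17 (SE 0.14, adjusted p = 3.72e-06). Every treated library lay above every control in both experiments, and both control groups stood at similar levels, with means of 120 and 112. Of all genes tested, 2.39% had a larger absolute change with sorafenib and 2.14% with MT1G. Across the 4 groups both Snail genes had their highest mean with sorafenib and the next with MT1G, levels set across separately normalized tables. For SNAI1 the control means already differed, 66.7 with DMSO and 104 with the vector, and its change with MT1G did not pass the test.

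ZEB1 (chr10:31318417-31529804) and ZEB2 (chr2:144384081-144520119) encode paired zinc finger and homeodomain repressors. ZEB1 counts were 473, 527 and 588 with sorafenib and 512, 591 and 401 with DMSO. The groups overlapped throughout, and the log2 change of 0.09 (95% interval -0.17 to 0.36, adjusted p = 0.521) did not pass the test. With MT1G the ZEB1 counts were 320, 406 and 373, against 337, 249 and 268 with the vector, so 1 vector library lay within the MT1G range. That log2 change was 0.37 (SE 0.13, adjusted p = 0.0443), and the call was lost with DESeq2 (adjusted p = 0.0584) and without MT1G replicate 2 (0.177), MT1G replicate 3 (0.0637), vector replicate 2 (0.215) or vector replicate 3 (0.147). ZEB2 counts were 247, 313 and 269 with sorafenib and 93.4, 101 and 117 with DMSO, a log2 change of 1.40 (SE 0.13, adjusted p = 6.49e-08). With MT1G they were 110, 124 and 135, and with the vector 83.3, 78.8 and 78.2, a log2 change of 0.61 (SE 0.16, adjusted p = 0.00959). All treated libraries lay above all controls for ZEB2 in both experiments. The order of the groups differed between both genes: ZEB2 stood highest with sorafenib, while for ZEB1 both groups of the MT1G experiment had lower means (366 and 285) than both groups of the sorafenib experiment (529 and 501), levels set across separately normalized tables.

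TWIST1 (chr7:19113047-19117636) and TWIST2 (chr2:238848085-238910534) encode related basic helix-loop-helix factors. TWIST1 had the smallest absolute change of the 9 tested genes in both experiments, with counts of 117, 114 and 121 with sorafenib and 111, 110 and 111 with DMSO. The treated libraries lay just above the controls, and the log2 change of 0.08 (95% interval -0.19 to 0.35) did not pass the test (adjusted p = 0.583). With MT1G its counts were 81.5, 107 and 111, against 91.0, 95.8 and 119 with the vector, overlapping groups with a log2 change of -0.03 (adjusted p = 0.917). TWIST2 counts were 121, 130 and 116 with sorafenib and 249, 234 and 282 with DMSO. All 3 treated libraries lay below all 3 controls, and the gene fell by 1.05 on the log2 scale (SE 0.12, adjusted p = 6.22e-07). With MT1G its counts were 304, 266 and 247, and with the vector 299, 341 and 285, overlapping groups with a log2 change of -0.18 (adjusted p = 0.302). TWIST2 was thus the EMT factor that went the opposite way to SNAI1, SNAI2 and ZEB2 under the drug.

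CDH1 (chr16:68737292-68835537), the E-cadherin gene, was represented by few reads: 13, 11 and 11 reads with sorafenib and 6, 10 and 14 with DMSO. As normalized read counts these were 11, 9.97 and 11.7 against 6.75, 9.64 and 15.3. The treated values lay within the control range, and the log2 change was 0.11 with a 95% interval from -0.74 to 0.95 (adjusted p = 0.821). At this depth the values are compatible with any change within that interval. With MT1G the counts were 18.9, 19.8 and 5.12, and with the vector 23, 23.3 and 16.3. MT1G replicate 3 was the lowest of the 6, the groups overlapped, and the log2 change of -0.67 (95% interval -1.57 to 0.23, adjusted p = 0.279) moved to -0.09 without that library.

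CDH2 (chr18:27932879-28177130), the N-cadherin gene, gave counts of 1306, 1335 and 1357 with sorafenib and 1642, 1572 and 1400 with DMSO. The treated libraries lay below the controls by a small margin, a log2 change of -0.20 (SE 0.07, adjusted p = 0.0146). The call was lost without sorafenib replicate 1 (adjusted p = 0.0507) or without DMSO replicate 1 (0.0958). With MT1G its counts were 1807, 1686 and 1416, and with the vector 1521, 1539 and 1499. These groups overlapped, with a log2 change of 0.10 (adjusted p = 0.456).

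VIM (chr10:17228241-17237593), the vimentin gene, was counted at 3876, 4040 and 4026 with sorafenib and 4434, 4541 and 4680 with DMSO. The treated libraries all lay below the controls, and VIM fell by 0.19 on the log2 scale (SE 0.05, adjusted p = 0.00504), a smaller absolute change than that of 78.4% of all genes tested. With MT1G its counts were 5619, 5360 and 4283, and with the vector 3806, 4423 and 4549. Of the MT1G libraries 2 lay above the vector range and the third within it, and the log2 change of 0.25 (SE 0.10) did not pass the test (adjusted p = 0.0818). Without MT1G replicate 3 it was 0.37 and did (adjusted p = 0.00185), as it did with no filter on low values (adjusted p = 0.0248) and with the column number as a block (adjusted p = 0.0378).

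OVOL1 (chr11:65787063-65797214) could not be tested. It had 1 read over the 3 sorafenib libraries, 0 over the DMSO libraries, 1 over the MT1G libraries and 2 over the vector libraries. The exact 95% interval of a count of 1 runs from 0.0253 to 5.57 reads, covering counting error only, so OVOL1 showed no difference detectable at this depth. It was the only one of the 10 genes below the minimum mean of 10, and CDH1 passed it narrowly in the sorafenib experiment, with a mean of 10.7 in the authors' deposited table.

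**Figure D2:**
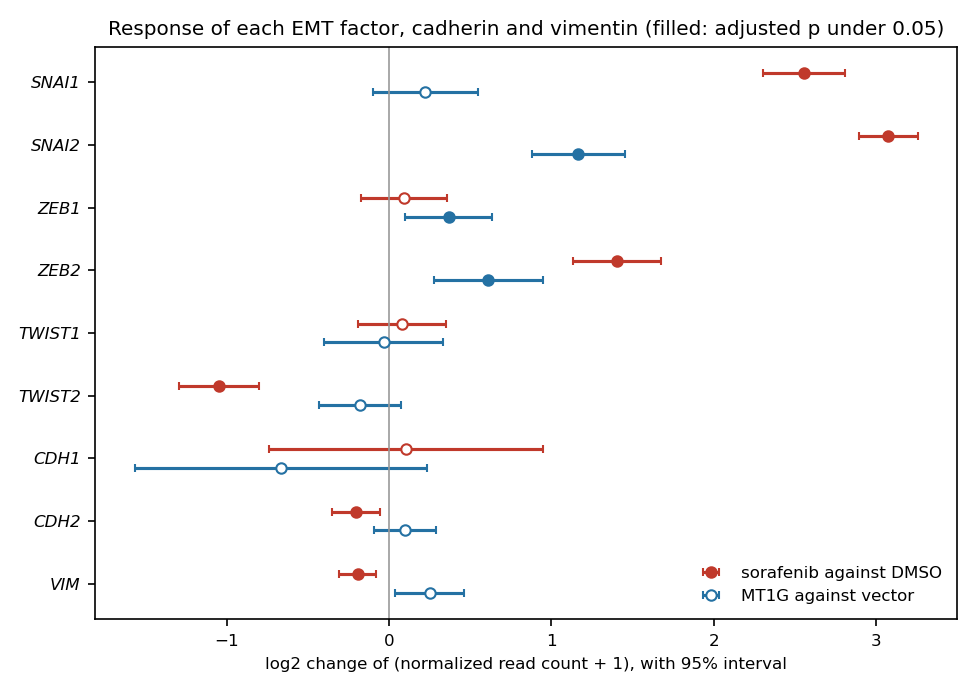
Log2 change of (normalized read count + 1) for 9 genes, sorafenib against DMSO in red and MT1G against vector in blue, with 95% intervals from limma (3 against 3 libraries each); filled points have an adjusted p under 0.05. SNAI2 is farthest right in both, at 3.07 and 1.17, and TWIST2 is farthest left among the called changes at -1.05.

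Whether both responses differed was tested in 1 model over the 12 libraries, as the sorafenib response less the MT1G response. This difference was above 0 for SNAI1, SNAI2 and ZEB2 and below 0 for TWIST2, VIM and CDH2, which makes 3 of 9 higher and 3 of 9 lower, against 24.4% higher, 30.0% lower and 54.3% in either direction among 13748 genes (limma, Benjamini-Hochberg). It was 2.33 for SNAI1 (adjusted p = 8.89e-10), 1.91 for SNAI2 (8.44e-10) and 0.79 for ZEB2 (0.00164) on the log2 scale. For these 3 genes the response to the drug was larger than that to the construct, where SNAI1 itself did not pass the test. It was -0.87 for TWIST2 (adjusted p = 0.00013), -0.44 for VIM (0.00385) and -0.30 for CDH2 (0.0311), and the CDH2 call was lost in 10 of 20 alternatives, edgeR (0.0747) and DESeq2 (0.0746) among them. ZEB1 at -0.28 (adjusted p = 0.25), TWIST1 at 0.11 (0.675) and CDH1 at 0.77 (0.297) did not pass the test, although ZEB1 did without DMSO replicate 3 (adjusted p = 0.04996).

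In the authors' deposited table, made from the same libraries, the log2 fold changes with sorafenib were 2.57 for SNAI1, 3.08 for SNAI2, 1.41 for ZEB2 and -1.05 for TWIST2. The authors' deposited table for MT1G gave 1.17 for SNAI2 (adjusted p = 2.4e-09) and 0.63 for ZEB2 (adjusted p = 0.0257). For ZEB1 the authors' deposited table gave an adjusted p of 0.073, on the other side of the threshold from the limma value above.

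For each tested gene the most similar profiles over the 12 libraries were taken by Pearson correlation of the log2 value less the control mean of its own table, among 10136 genes with a mean of at least 100 in both tables. The 12 values share 4 group means, so r largely reflects the pattern of group changes. SNAI1 was most like the histone gene H2BC12 (r = 0.998), MT1E (0.998), a metallothionein gene of the MT1G family, and the autophagy gene MAP1LC3B (0.998). SNAI2 was most like TNFAIP3 (r = 0.997), an inhibitor of NF-kappa B signalling, IRAK2 (0.996), a kinase of the interleukin 1 receptor pathway, and EEPD1 (0.996). Among the genes most like ZEB2 were SLC22A15 (r = 0.982) and ZFP36 (0.982), which encodes an RNA-destabilising protein.

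TWIST2, which fell with sorafenib, was most like TSPYL1 (r = 0.994), TM7SF3 (0.989) and the condensin gene NCAPH (0.988). VIM was most like the lysosomal peptidase gene TPP1 (r = 0.984), MRPS30 (0.976) and PPARG (0.971), and among those most like CDH2 were NUDT12 (0.935) and SHROOM3 (0.934). ZEB1 was most like the repressor gene REST (r = 0.960), WAC (0.956) and THUMPD1 (0.946), and CDH1 like RCL1 (0.924), PMM2 (0.865) and UBE2Q1 (0.861). TWIST1 had no close match, the highest being GTPBP8 (r = 0.739), CRNDE (0.722) and RPL39L (0.712).

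Genes around the EMT factors were then counted in fixed lists. Each count below stands beside 34.4% of all genes higher and 35.8% lower with sorafenib. For MT1G these shares were 11.5% and 11.3%. No list was tested as a set. Transforming growth factor beta (TGF-beta) is a classical inducer of EMT factors. Of 12 ligands, receptors and Smad pathway genes, 4 were higher and 5 lower with sorafenib (median log2 change -0.07), and 4 were higher and 2 lower with MT1G (median 0.06). With the drug the ligand gene TGFB2 rose by 0.74 (adjusted p = 2.3e-06), whereas the ligand gene TGFB1 was at -0.73 (3.28e-08) and the co-receptor gene TGFBR3 at -1.83 (9.34e-11). With MT1G the Smad inhibitor gene SKIL rose by 0.87 (adjusted p = 5.17e-06) and the receptor gene TGFBR1 by 0.66 (0.000745), while the signal transducer gene SMAD3 was at -0.50 (0.000386).

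The next list held partners through which SNAI, ZEB and TWIST proteins act. Of 17 tested, 2 were higher (the methyltransferase genes EZH2 and SETDB1) and 11 lower with sorafenib (median -0.34), and 0 were higher and 3 lower with MT1G (median -0.08); 1 was higher there in limma at an unadjusted p under 0.05, 1 with edgeR and 0 with DESeq2. The co-repressor scaffold gene SIN3A was at -1.66 with sorafenib (adjusted p = 4.99e-11) and the deacetylase gene HDAC1 at -0.73 (5.95e-09), while EZH2, the polycomb methyltransferase gene, rose by 0.68 (5.46e-08). With MT1G the helix-loop-helix partner gene TCF3 was at -0.41 (adjusted p = 0.000929) and LIMD1 at -0.35 (0.00715). Of 12 genes for the turnover of these short-lived proteins, 4 were higher and 5 lower with sorafenib, including the kinase gene GSK3B at -0.62 (adjusted p = 4.89e-07), COPS2 at -0.48 (6.55e-06) and the ubiquitin ligase gene FBXO45 at 0.87 (2.3e-08). With MT1G 2 were higher and 0 lower (0 also at an unadjusted p under 0.05 in limma, with edgeR and with DESeq2), the ubiquitin ligase gene BTRC at 0.25 (adjusted p = 0.0496) and COPS2 at 0.28 (0.0413).

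Among 14 other transcription factors of the mesenchymal state, 8 were tested. The drug gave 3 higher and 3 lower, near the 34.4% and 35.8% of all genes. MT1G gave 2 higher and 1 lower, against 11.5% and 11.3% of all genes. FOXQ1 was at -1.77 with the drug (adjusted p = 6.88e-11) and 0.70 with MT1G (0.000256), and RUNX2, a factor of bone formation, at 1.95 (4.61e-06) and 0.97 (0.0449). RUNX2 counts were low in the MT1G experiment, at 31.3 ± 14.4 with MT1G and 14.6 ± 2.56 with the vector (SD, n = 3 each). With MT1G FOXC1 was at -0.32 (adjusted p = 0.00708). Of 17 epithelial and hepatocyte regulators, 10 were tested with sorafenib and 9 with MT1G. Of these, 5 were lower and 3 higher with sorafenib (median -0.42), and 6 were lower and 1 higher with MT1G (median -0.57). CEBPA, a liver-enriched factor, was at -1.65 with sorafenib (adjusted p = 6.82e-10) and -0.99 with MT1G (0.000198), and the epithelial splicing factor gene ESRP2 at -1.20 with sorafenib (1.11e-10). ELF3, an epithelial factor, changed in opposite directions, at 0.73 with sorafenib (adjusted p = 4.79e-08) and -0.70 with MT1G (2.7e-06), and KLF5 was at 0.23 with MT1G (0.0477).

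**Figure D3:**
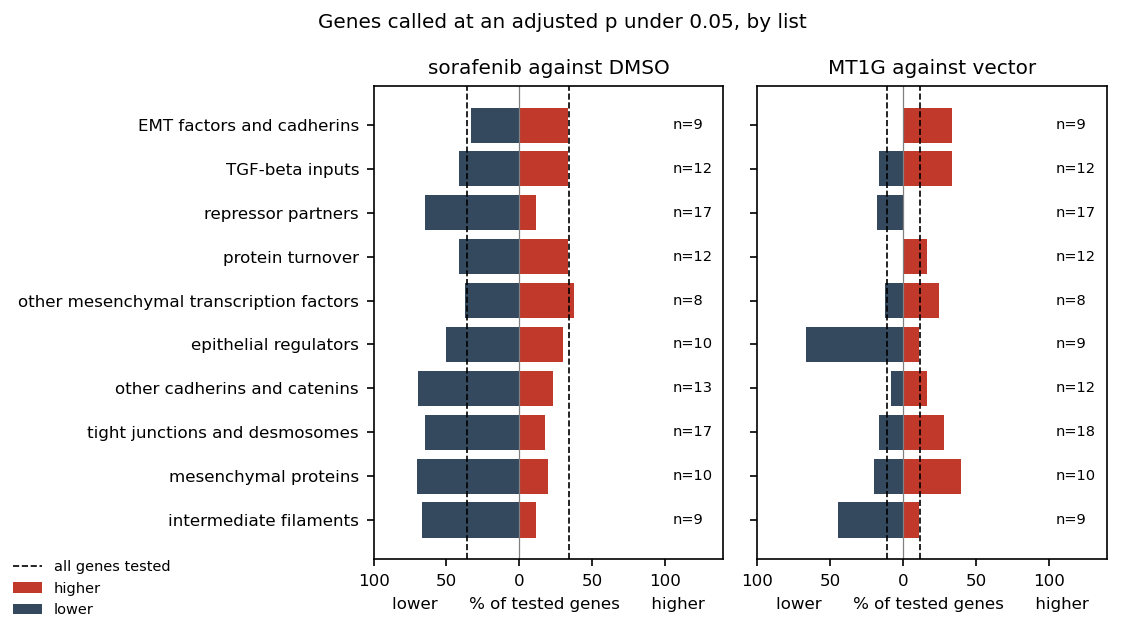
Share of the tested genes of each list called higher (red, to the right) or lower (dark, to the left) at an adjusted p under 0.05, with the number tested beside each bar; dashed lines are the shares over all genes tested. The EMT factors and cadherins lie near the dashed lines with sorafenib (3 and 3 of 9), and the mesenchymal proteins have 7 of 10 lower there.

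Other cadherins, catenins and nectins had 3 of 13 tested higher and 9 lower with sorafenib (median -0.36). The counts with MT1G were 2 of 12 tested higher and 1 lower (median 0.05). CTNNB1, the beta-catenin gene, was at -1.03 (adjusted p = 1.18e-10) and the GPI-anchored cadherin gene CDH13 at -0.47 (1.2e-05) with sorafenib, while NECTIN1 rose by 0.77 (7.68e-05). With MT1G CDH13 rose by 0.45 (adjusted p = 0.00173) and NECTIN3 by 0.31 (0.0238), and CDH24 was at -0.48 (0.00411). Tight junction and desmosome genes had 3 of 17 tested higher and 11 lower with sorafenib (median -0.47). With MT1G they had 5 of 18 tested higher and 3 lower (median 0.16). The claudin gene CLDN1 rose by 2.34 with the drug (adjusted p = 2.18e-13), the desmosomal cadherin gene DSG2 was at -0.96 (1.96e-09), and the adhesion molecule gene EPCAM was at -0.93 (1.36e-07). With MT1G the desmoplakin gene DSP rose by 0.62 (adjusted p = 1.66e-05) and DSG2 by 0.47 (0.000294), while EPCAM was at -0.53 (0.0011).

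The next list held matrix and surface proteins of mesenchymal cells. Of 10 tested, 2 were higher and 7 lower with sorafenib (median -0.62), and 4 were higher and 2 lower with MT1G (median 0.23). The collagen gene COL5A1 was at -1.46 (adjusted p = 1.89e-12) and the proteoglycan gene LUM at -1.99 (2.41e-12) with sorafenib, against COL3A1 at 0.87 (0.00049). With MT1G the fibronectin gene FN1 rose by 3.00 (adjusted p = 2.88e-16), from 553 ± 20.8 to 4431 ± 412 (SD, n = 3 each), while the receptor kinase gene AXL was at -0.37 (0.00438). Intermediate filament genes other than VIM had 1 of 9 tested higher and 6 lower with sorafenib (median -0.26). KRT18 was at -0.53 (adjusted p = 4.49e-06), SYNM at -0.53 (1.2e-05) and KRT80 at 0.59 (1.01e-07). With MT1G 1 of 9 was higher and 4 lower (median -0.19), with KRT8 at -0.41 (adjusted p = 0.00205), KRT18 at -0.48 (0.000715) and KRT7 at 0.38 (0.003).

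The summed level of fibroblast markers was lower with sorafenib and higher with MT1G, and LUM, COL1A1, COL1A2 and COL3A1 also stand in the list of mesenchymal proteins. The summed normalized read count of 8 markers was 2338 to 2591 with DMSO, 1041 to 1081 with sorafenib, 2159 to 2207 with the vector and 2644 to 3475 with MT1G. Of 5 tested, 1 was higher and 2 lower with sorafenib, and 2 were higher and 0 lower with MT1G (1 lower in limma at an unadjusted p under 0.05, 0 with edgeR or DESeq2). Of the 8 markers, COL1A2 and THY1 were below 10 in all 12 libraries, and COL1A2 was at 0 in the DMSO and the vector libraries. The others, COL1A1, COL3A1, PDGFRB, DCN, ACTA2 and LUM, were not below 10 throughout. DCN stood at 130 ± 22.3 with DMSO and 60.0 ± 8.15 with sorafenib (SD, n = 3 each). In the other experiment it stood at 220 ± 26.2 with the vector and 437 ± 77.4 with MT1G (SD, n = 3 each). LUM gave most of the sum with DMSO, at 1780 ± 88.1, but stood at 447 ± 39.1 with sorafenib (SD, n = 3 each). COL1A1 stood at 464 ± 31.8 with DMSO and 440 ± 31.4 with sorafenib (SD, n = 3 each). The sums of 6 endothelial markers stayed between 39.5 and 80.8 and those of 6 leukocyte markers between 24.1 and 46.9 in all 12 libraries. The part of such cells in the results was not tested.

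ATAC-seq peaks were called in each library separately. Peaks were merged where they shared at least 1 bp, and 60 merged regions fell within the 10 gene spans or 2 kb on either side. A region is called lost where both DMSO and neither sorafenib library had a peak, and gained in the reverse case. Of the 60 regions, 26 were open in all 4 libraries, 15 were lost and 3 gained, against 34.2%, 12% and 6.40% of all 220925 merged regions. With 2 libraries per group there was no test. The sorafenib lists also covered less of the genome, 54.5 and 52.3 Mb against 71.9 and 76.9 Mb with DMSO, at a lower median fold enrichment (5.51 and 5.56 against 6.61 and 6.94), and the part of this in the losses was not tested.

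The regions at the genes that rose most were open in every library. SNAI1 had 1 region, chr20:49982245-49983089, which overlaps the lower-coordinate end of the gene span. Its peaks had a fold enrichment over local background, as the authors' peak caller wrote it, of 5.95 and 8.64 with DMSO and 5.94 and 5.53 with sorafenib. SNAI2 had 3 regions, all open in all 4 libraries. The one at chr8:48923329-48923791, beyond the upper-coordinate end of the gene, had 7.41 and 11.4 with DMSO and 10.6 and 10.6 with sorafenib, and the one at chr8:48914796-48915814, beyond the other end, had 9.81 and 13.0 against 5.23 and 3.56. No region at SNAI1 or SNAI2 was gained. ZEB1 likewise had 3 regions open in all 4 libraries.

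ZEB2 rose while regions within it were lost. Of its 8 regions 2 were open in all 4 libraries and 3 were lost, and the widest loss was at chr2:144437444-144438370, with 9.82 and 14.8 in the DMSO libraries. A region open in all 4, chr2:144414105-144415020, had 16.5 and 22.8 with DMSO and 6.88 and 7.01 with sorafenib, the highest DMSO values at any of these genes. At the region nearest the start, described above, the values were 7.20 and 12.1 with DMSO and 10.3 and 9.63 with sorafenib. TWIST2, which fell, lost none of its 5 regions. It gained 1, chr2:238848931-238849239, just inside the gene from its start, with 4.68 and 3.36 in the sorafenib libraries. TWIST1 had 2 regions, 1 open in all 4 libraries and 1 lost.

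CDH2 held the most losses. Of its 16 regions 8 were lost, 4 were open in all 4 libraries and none was gained. By the mean of both DMSO libraries, the lost regions with the highest enrichment were chr18:28019501-28020255, with 11.9 and 9.78 in the DMSO libraries, and chr18:27964723-27965300, with 9.24 and 8.76. The region over its first start, chr18:28177065-28178629, was open in all 4, with 4.52 and 5.50 with DMSO and 6.24 and 5.48 with sorafenib. CDH1, with very few reads, nevertheless had 16 regions, of which 7 were open in all 4 libraries, 2 were lost and 1 gained. None of them overlapped the lower-coordinate end of the gene span. The first lay 3121 bp inside it. VIM had 1 region over its start that was open in all 4 libraries and 1 lost region beyond its end, chr10:17238295-17239497, with 7.57 and 10.9 in the DMSO libraries. OVOL1 had 4 regions, 1 open in all 4 libraries and 1 gained.

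**Figure D4:**
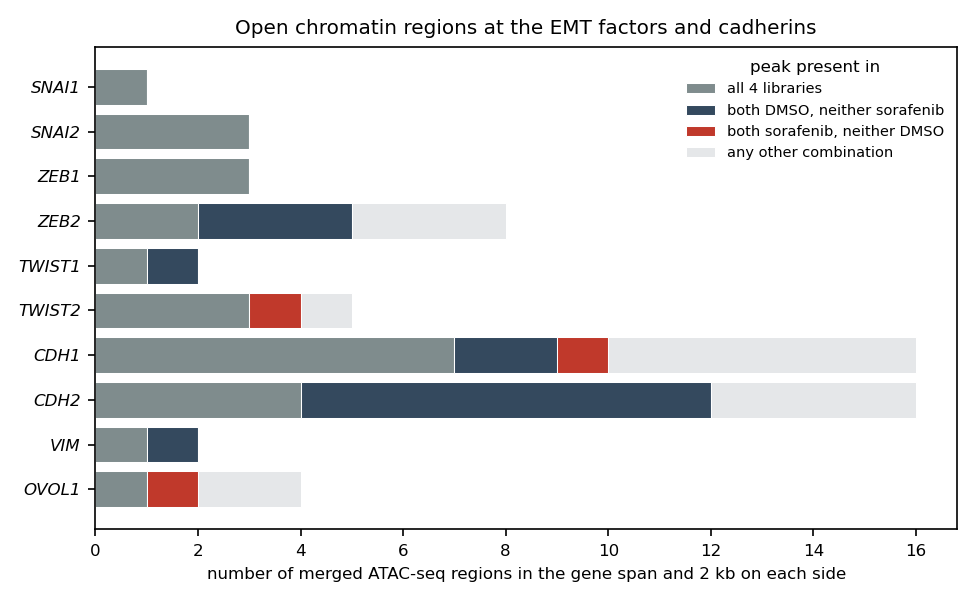
Number of merged ATAC-seq regions in the span of each gene and 2 kb on each side, split by the libraries with a peak there (2 DMSO and 2 sorafenib libraries). CDH2 and CDH1 have 16 regions each, 8 of those at CDH2 are in DMSO only, and the regions at SNAI1, SNAI2 and ZEB1 are present in all 4 libraries.

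Over the 10 genes the DMSO libraries had a mean of 50.5 peaks and the sorafenib libraries 40.5. The whole lists held 131245 and 156770 peaks with DMSO and 139304 and 135681 with sorafenib, and 110449 and 142860 against 109935 and 108072 at a -log10 q of at least 5. Whether the difference at these genes departs from that of the whole lists was not tested. Chromatin of MT1G or vector samples was not analysed here.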

How the data were processed

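Polyadenylated RNA was sequenced in 12 libraries and open chromatin in 4, per the labels. Per the submitters' processing notes, the genome was hg38 and the tools named, in no order, were MACS2 2.2.7.1, SAMtools, Picard, Bowtie2 2.4.1, DESeq2, featureCounts 1.6.1, HISAT2 1.1.0 and cutadapt. Whether counting used strand was not given in the sources used here. The deposited RNA signal is a normalized read count: the authors divided reads per gene by a size factor per library, and multiples of 1 step per column gave the reads back within a tolerance of 0.001. The deposited comparison tables hold the authors' log2 fold changes, p-values and a test score. The deposited peak lists hold, per library, the authors' fold enrichment ratio, a score, and the -log10 p and q. Columns named by group and number were assigned to groups, and replicate numbers are column numbers.

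Each RNA experiment was fitted alone with limma 3.58.1 in R 4.3.3 (trend and robust variance, two-sided) on log2(normalized read count + 1), keeping genes whose mean over the 6 libraries reached 10, with Benjamini-Hochberg adjustment over all tested genes at 0.05. The difference of responses used all 12. The fits were tested on simulated data. Recovered reads were used with edgeR 4.0.16, DESeq2 1.42.0 and TMM factors as alternatives, beside pseudocounts of 0.5 and 5, no filter, a minimum mean of 50, a block, and leaving out each library. Named genes are the 10 genes, and of each other list the smallest adjusted p higher and lower plus the second in the direction with more calls. A few genes picked by these rules are not reported here. Genes and lists were chosen with earlier results of these data known. Gene spans came from RefSeq (GRCh38.p14), matched by symbol for 10 of 10 genes. Some genes share sequence with relatives, and how the authors' counting treated reads of several origins was not given in the sources used here.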

Additional observations from a re-analysis of the deposited data

How the results depend on the processing

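No result changed direction while past the threshold. SNAI1, SNAI2, ZEB2, TWIST2 and VIM kept their calls with sorafenib under all 14 alternatives, with ranges of log2 change of 2.48 to 2.62, 3.03 to 3.12, 1.31 to 1.49, -1.11 to -0.97 and -0.21 to -0.16. The differences of responses of the same 5 genes kept theirs under all 20. SNAI2 and ZEB2 kept theirs with MT1G (1.12 to 1.25 and 0.54 to 0.69). The ZEB1, CDH2 and VIM calls that did not hold are given beside those genes. Leaving out 1 library at a time gave 1003 to 1824 genes higher and 766 to 2010 lower with MT1G, against 1604 and 1575 with all 6; the lowest counts came without vector replicate 3 (1003 and 766) and vector replicate 2 (1054 and 825), and the highest without MT1G replicate 3 (1824 and 2010). With the column number as a replicate block, 4992 genes were higher and 5201 lower with sorafenib, 1691 and 1566 with MT1G, and 3163 and 3885 in the difference of responses; the block added VIM to the calls with MT1G and changed no other call among the 10 genes. Same-numbered columns did not deviate together (correlations of -0.03, 0.03 and -0.06 with sorafenib and DMSO, and -0.14, 0.04 and -0.06 with MT1G and vector). Whether same-numbered samples were grown or processed together cannot be told from these values. Peaks at the 10 genes stayed more numerous with DMSO at a -log10 q of at least 5 (46.5 against 32.5), within 10 kb of the gene spans (62.5 against 52.0) and by summit (48.5 against 39.5). Depth limits CDH1 and OVOL1, and 3 libraries per group limit changes as small as those of CDH2 and VIM.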
